A study of Danio rerio with 25 samples.

Results

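The genes described here move calcium into and out of the sarcoplasmic reticulum, the calcium store of the heart muscle cell. They were chosen by name: ryr2, atp2a2, pln, casq2, slc8a1, hrc and trdn, with every gene ID that carries one of these names taken as a member. This gave 10 of the 31901 gene IDs in the count tables. They are RYR2 (ENSDARG00000003706), trdn (ENSDARG00000041779), CASQ2 (ENSDARG00000008982), hrc (ENSDARG00000045947), atp2a2a (ENSDARG00000029439), ATP2A2 (ENSDARG00000005122), pln1 (ENSDARG00000069404), pln2 (ENSDARG00000097256) and a pair of IDs that are both named SLC8A1 (ENSDARG00000013422 and ENSDARG00000043406). Symbols in capitals follow the human counterpart, as in the name table. Only 1 ID is named RYR2, so a second ryr2 paralog was not analysed here, and neither pln gene carries a paralog letter in that table.

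The study sorted cardiomyocytes from dissociated hearts of adult zebrafish, 20 cells to a tube, and made a Smart-seq2 library from each of 25 tubes. All fish carried the same transgenes, sox10:CreERT2 together with a vmhcl reporter of the form loxP-tagBFP-loxP-mCherry-NTR. The sox10 promoter, known for its activity in the neural crest, drives a tamoxifen-inducible Cre, and the vmhcl promoter drives blue tagBFP, which recombination replaces with red mCherry joined to nitroreductase (NTR). CI_RFP are 12 tubes from the red gate after cryoinjury, CI_BFP 3 tubes from the blue gate after cryoinjury, UN_RFP 6 tubes from the red gate of uninjured hearts, and UN_BFP 4 tubes from the blue gate of uninjured hearts. Red cells thus stand for cells in which the sox10 driver was active when Cre was induced, and for descendants of such cells. Either colour needs activity of the vmhcl promoter. The labels give no animal, age, sort, day, time after injury or time of induction, so p-values measure only the spread between tubes, some of which may share a fish.

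In a working heart cell, calcium that enters through channels of the surface membrane opens the ryanodine receptor, which releases the calcium of the store. The receptor sits in a complex with triadin and calsequestrin, the protein that binds calcium inside the store. For relaxation, the SERCA pump returns calcium to the store under the brake of phospholamban, and the sodium-calcium exchanger moves the rest out of the cell. Zebrafish keep paralogs of several of these genes from an ancient genome duplication.

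Library totals ran from 5644279 to 11981012 counts (median 8802372), and the number of genes with at least 1 count from 1226 to 15380. UN_RFP 5 held 1226 genes, CI_RFP 5 held 3874 and UN_RFP 1 held 5008, the 3 lowest. The 10 members together took 0.0456% to 0.721% of a library's counts in CI_RFP (median 0.439%), 0.0753% to 0.101% in CI_BFP (median 0.086%), 0.0905% to 0.516% in UN_RFP (median 0.162%) and 0.0363% to 0.163% in UN_BFP (median 0.0798%). The cardiomyocyte label was checked against its markers: MYL7, the atrial-type myosin light chain that the whole zebrafish heart uses, was detected in 25 of 25 libraries, but in 8 of 25 the summed CPM of leukocyte or of fibroblast and epicardial markers exceeded that of cardiomyocyte markers. These were CI_RFP 4, 7, 10 and 11 and UN_BFP 1 (fibroblast and epicardial), CI_BFP 2 and 3 (leukocyte), and UN_BFP 2 (both). MYL7 averaged 29100 ± 32680 CPM in CI_RFP and 6558 ± 4247 CPM in CI_BFP, and 16680 ± 14390 CPM in UN_RFP and 4124 ± 3549 CPM in UN_BFP (SD, n = 12, 3, 6 and 4). CPM here means counts per 1000000 counts of a library's total after TMM scaling, and the level of one gene is not compared with that of another because lengths were not used.

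RYR2, the release channel, had the largest fitted difference between the gates of all members. In the 12 CI_RFP libraries it ran from 7.12 to 286.7 CPM with a median of 159.0, against 0.38, 0 and 0 CPM in the 3 CI_BFP libraries. Every red-gate library after injury was thus above every blue-gate one. The channel was read in 12 of 12 CI_RFP libraries and 1 of 3 CI_BFP libraries. In uninjured hearts it ran from 0 to 379.9 CPM in the 6 UN_RFP libraries (median 70.2), against 0, 0.194, 0 and 26.2 CPM in the 4 UN_BFP libraries. Here the groups overlapped: 4 of 6 UN_RFP libraries lay above the highest UN_BFP library, and UN_RFP 1 and UN_RFP 5 held no RYR2 count. Both are among the 3 libraries with the fewest genes. Without these 3, an alternative chosen after seeing the data, the log2 fold change was 4.62 in uninjured hearts and 10.13 after injury (edgeR adjusted p = 0.221 and 0.173), and 0 of 9 members were called. Taking both conditions, 15 of 18 red-gate libraries exceeded the highest of 7 blue-gate libraries.

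The fitted log2 fold change of RYR2 was 10.13 ± 2.66 for CI_RFP against CI_BFP (SE, edgeR quasi-likelihood test, Benjamini-Hochberg adjusted p = 0.165 over 14853 genes), and 4.03 ± 1.74 for UN_RFP against UN_BFP (edgeR adjusted p = 0.183). Neither passed the threshold of 0.05. In the first of these comparisons edgeR called 0.0% of all genes higher and 0.0% lower, and in the second again 0.0% and 0.0%, so the count of 0 of 9 members called sits on a background of 0. The common biological coefficient of variation was 2.127, which is a spread between tubes larger than the mean itself. RYR2 after injury passed under several other settings: voom (adjusted p = 6.54e-05), DESeq2 (adjusted p = 3.79e-06), edgeR with the vmhc to myh6 ratio as a covariate (adjusted p = 0.0272), edgeR on the 2 groups alone (adjusted p = 0.00951), edgeR with no filter on low counts (adjusted p = 0.0311) and edgeR without UN_BFP 4 (adjusted p = 0.0489). It did not pass in edgeR with DESeq2's size factors in place of TMM (adjusted p = 0.162) or with genes detected as a covariate. Nor did it pass on leaving out any other single library. Of all tested genes, voom called 0.882% higher and 0.552% lower, and DESeq2 2.94% and 0.0539%. With the vmhc to myh6 ratio as a covariate edgeR called 0.162% and 0.781%. The 2 groups alone gave 0.0804% higher, no filter 0.158% and leaving out UN_BFP 4 0.0408%. UN_BFP 4 is not part of the comparison after injury and enters it only through the filter, scaling and spread shared by all libraries. It held 226 of the 228 RYR2 counts of UN_BFP, so leaving it out sets the uninjured reference near 0. Without it the fold in uninjured hearts was 10.51 on the log2 scale (edgeR adjusted p = 0.0391, with 0.0408% of genes called higher). Because this library is singled out by its RYR2 value, that p-value is no support for a gate difference.

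**Figure D1:**
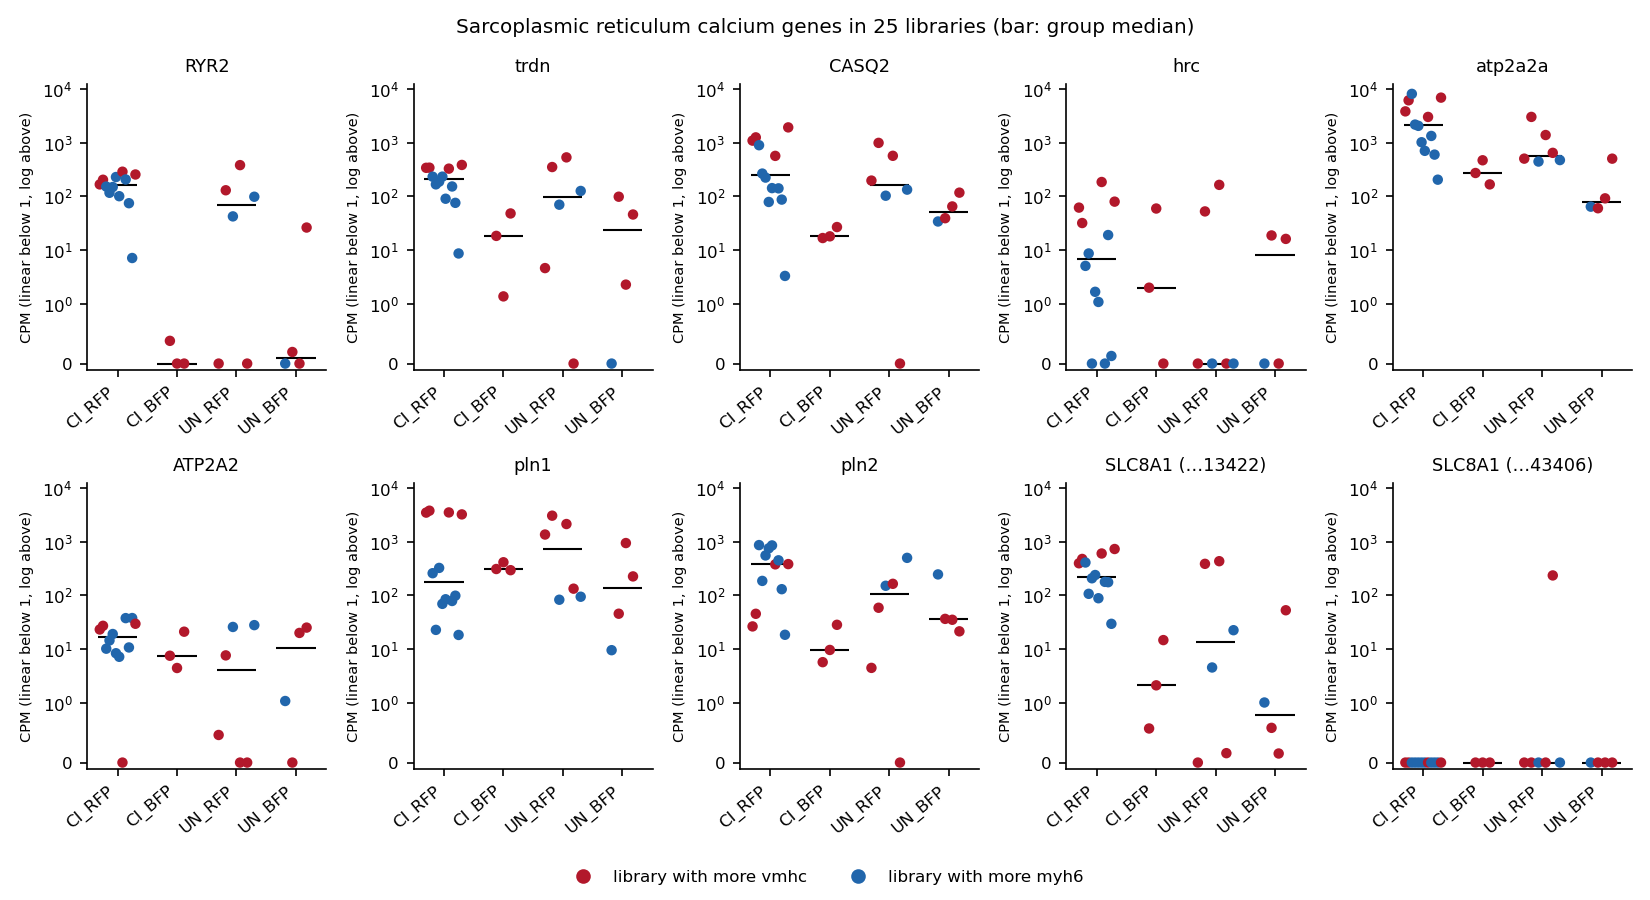
Each panel shows 1 gene, with CPM of every library on a symmetric log axis and the 4 groups side by side, red gate left of blue gate within each condition; points are libraries, coloured by which chamber myosin is higher, and bars are group medians. RYR2 and SLC8A1 (ENSDARG00000013422) have every CI_RFP library above every CI_BFP library, at 7.12 CPM or more against at most 0.38 CPM for RYR2. The groups after injury overlap for trdn, CASQ2, hrc, atp2a2a, ATP2A2, pln1 and pln2.

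trdn, which encodes triadin, the membrane protein that links the receptor to calsequestrin, ran from 8.64 to 382.9 CPM in CI_RFP (median 209.2), against 18.4, 1.38 and 48.0 CPM in CI_BFP. All CI_RFP libraries but CI_RFP 11, which also had the least MYL7 of the red gate at 274.1 CPM, lay above the blue-gate ones. In uninjured hearts it ran from 0 to 529.4 CPM in UN_RFP (median 97.8), against 0, 98.2, 2.28 and 45.9 CPM in UN_BFP, and the groups overlapped. The log2 fold changes were 3.22 ± 1.57 after injury and 2.30 ± 1.36 without it (edgeR adjusted p = 0.524 and 0.432).

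CASQ2, cardiac calsequestrin, the main calcium buffer of the store, ran from 3.30 to 1912 CPM in CI_RFP (median 243.7), against 16.7, 18.0 and 26.8 CPM in CI_BFP. The 3 blue-gate values were close together, and 11 of 12 red-gate libraries were above all of them. Among uninjured hearts it ran from 0 to 985.2 CPM in UN_RFP (median 164.5), against 34.0, 39.1, 64.7 and 116.9 CPM in UN_BFP. Log2 fold changes were 4.75 ± 1.53 and 2.37 ± 1.20 (edgeR adjusted p = 0.441 and 0.283). DESeq2 gave CASQ2 an adjusted p of 0.0456 after injury, in a comparison where it called 2.94% of all genes higher. In edgeR with DESeq2's size factors the adjusted p was 0.557.

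hrc encodes the histidine-rich calcium binding protein, a luminal partner of triadin and SERCA in mammals. It was low and patchy: 0 to 184.4 CPM in CI_RFP (median 6.86), against 2.00, 59.3 and 0 CPM in CI_BFP. In UN_RFP it had counts in 2 of 6 libraries, at 52.3 and 163.1 CPM, against 0, 18.7, 0 and 16.1 CPM in UN_BFP. The groups overlapped throughout, and the log2 fold changes of 0.68 ± 2.41 and 2.04 ± 2.48 had errors larger than themselves (edgeR adjusted p = 0.999 and 0.883).

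On the uptake side, atp2a2a, which encodes SERCA2, the pump that refills the store, was read in all 25 libraries. It ran from 203.7 to 8033 CPM in CI_RFP (median 2099), against 271.2, 467.6 and 166.5 CPM in CI_BFP. CI_RFP 11 was the single red-gate library within the blue-gate range. Without injury it ran from 442.9 to 2995 CPM in UN_RFP (median 572.2), against 64.2, 60.0, 91.6 and 501.3 CPM in UN_BFP, where UN_BFP 4 stood inside the red-gate range. The log2 fold changes were 3.30 ± 1.13 after injury and 2.58 ± 0.99 without (edgeR adjusted p = 0.524 and 0.131).

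ATP2A2, the other gene of the pump pair, had no such difference in range. Values ran from 0 to 37.7 CPM in CI_RFP (median 16.8), against 7.51, 4.44 and 21.0 CPM in CI_BFP, and from 0 to 27.9 CPM in UN_RFP (median 4.04), against 1.08, 0, 20.0 and 25.1 CPM in UN_BFP. Its log2 fold changes were 0.77 ± 1.99 and -0.16 ± 1.87 (edgeR adjusted p = 0.999 and 1). Across the 25 libraries its Spearman correlation with the other tested members lay between -0.2 and 0.23, values over the same tubes, whose heart muscle content differs, given without a test. Because the handling of reads that match several genes is not given in the sources used here, counts of paralogs in a pair are uncertain where their sequences are alike.

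The phospholamban pair split by gene. pln1 ran from 18.3 to 3745 CPM in CI_RFP (median 177.9), against 308.2, 411.7 and 293.2 CPM in CI_BFP, so that the 3 blue-gate libraries lay inside the red-gate range. It ran from 82.7 to 3025 CPM in UN_RFP (median 740.9), against 9.53, 45.4, 936.5 and 224.5 CPM in UN_BFP. pln2 ran from 18.4 to 858.5 CPM in CI_RFP (median 378.3), against 5.71, 9.63 and 28.3 CPM in CI_BFP, and 10 of 12 red-gate libraries were above all blue-gate ones. In uninjured hearts pln2 ran from 0 to 496.9 CPM in UN_RFP (median 104.5), against 244.6, 36.4, 35.1 and 21.4 CPM in UN_BFP. After injury the log2 fold change between the gates was 4.72 ± 1.59 for pln2 and 1.87 ± 1.65 for pln1 (edgeR adjusted p = 0.524 and 0.999). In uninjured hearts it was 0.79 ± 1.17 for pln2 and 1.90 ± 1.54 for pln1 (edgeR adjusted p = 0.929 and 0.704). DESeq2 gave pln2 an adjusted p of 0.0362 after injury, where it called 2.94% of all genes higher. In edgeR with DESeq2's size factors the adjusted p of pln2 was 0.557.

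SLC8A1 (ENSDARG00000013422) encodes the sodium-calcium exchanger, which removes calcium from the cell across the surface membrane. It ran from 29.5 to 725.8 CPM in CI_RFP (median 222.8), against 0.571, 2.12 and 14.7 CPM in CI_BFP, with no overlap. With RYR2 it was 1 of 2 members whose groups were fully apart in this direction, against 0.693% of all tested genes (1.14% in the other direction). In uninjured hearts it ran from 0 to 430.8 CPM in UN_RFP (median 13.5), against 1.01, 0.581, 0.152 and 52.7 CPM in UN_BFP, and the groups overlapped. Its log2 fold changes were 5.70 ± 2.06 and 3.37 ± 1.62 (edgeR adjusted p = 0.524 and 0.255). After injury DESeq2 gave it an adjusted p of 0.0295, with 2.94% of all genes called higher. In edgeR with DESeq2's size factors its adjusted p was 0.557. The second SLC8A1 ID (ENSDARG00000043406) had 1486 counts in UN_RFP 5, or 234.1 CPM, and 0 counts in the other 24 libraries, and did not pass the filter on low counts. UN_RFP 5 held nearly none of the first ID, at 0.158 CPM. It also had the fewest genes of all libraries, 1226, and 0 counts of RYR2, CASQ2 and trdn. Whether the tube used 1 ID in place of the other was not tested.

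Read together, 9 of 9 tested members had a positive log2 fold change for CI_RFP against CI_BFP, with a median of 3.3, against a median of 0.22 and 55.3% positive over all tested genes. For UN_RFP against UN_BFP 8 of 9 were positive, with a median of 2.3, against -0.43 and 38.8% for all genes. The members were not alone in this among heart muscle genes. Of 14 tested cardiomyocyte marker IDs, 14 were positive after injury (median 5.2) and 13 without (median 2.18). At an unadjusted p under 0.05, 6 of 9 members were higher in CI_RFP against 7.65% of all genes, and 3 of 9 (RYR2, SLC8A1 and atp2a2a) were higher in UN_RFP against 6.56%. These counts describe a list chosen with earlier results of these data in view. With DESeq2's size factors in place of TMM, the median of all genes moved by -0.61 after injury and by -0.19 without, and the log2 fold changes of RYR2 were 9.49 and 3.47.

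**Figure D2:**
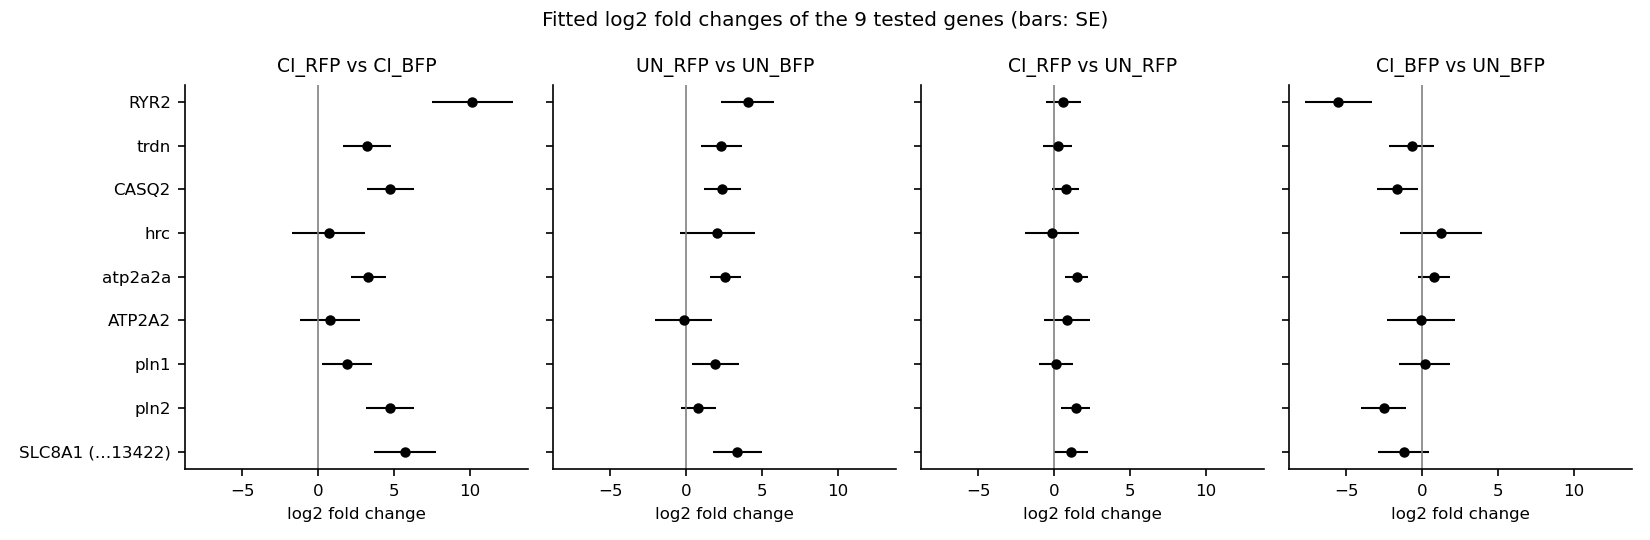
Log2 fold changes of the 9 tested members in 4 comparisons with their standard errors, from the edgeR fit of all genes; the grey line marks 0. After injury all 9 points for the red over the blue gate lie right of 0, from 0.68 for hrc to 10.13 for RYR2. None passed the adjusted threshold. The error of hrc spans 0, and the median CPM of pln1 was lower in CI_RFP than in CI_BFP.

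The gates also differed in what else they held. A sum of 11 leukocyte marker IDs ran from 0.607 to 6676 CPM in CI_RFP (median 99.1), against 2108 to 13700 CPM in CI_BFP (median 7776), and from 0 to 5942 CPM in UN_RFP (median 319.8), against 182.1 to 13070 CPM in UN_BFP (median 1689). In each group 10 of the 11 IDs were detected, and lyz, a granulocyte and macrophage gene, was at 0 in all. The sum of 16 cardiomyocyte marker IDs ran from 1886 to 226900 CPM in CI_RFP (median 29950), against 5890 to 14630 CPM in CI_BFP (median 8325), and from 6921 to 112100 CPM in UN_RFP (median 33480), against 1408 to 15340 CPM in UN_BFP (median 8407). In tubes of mixed content, fewer heart muscle cells and less RNA per heart muscle cell cannot be told apart, and the part of leukocyte RNA in the member differences was not tested. Sums of 8 endothelial IDs had a median of 65.6 CPM in CI_RFP against 219.6 CPM in CI_BFP, and of 54.1 CPM in UN_RFP against 664.4 CPM in UN_BFP. Those of 11 fibroblast and epicardial IDs, all detected in each group, ran from 0 to 48040 CPM in CI_RFP (median 6464), against 1950 to 12090 CPM in CI_BFP (median 4434), and from 0 to 2993 CPM in UN_RFP (median 51.5), against 1196 to 7381 CPM in UN_BFP (median 5666). CI_BFP 1 was the 1 library of its group in which cardiomyocyte markers were the largest of these sums, at 14630 CPM, and it held the 0.38 CPM of RYR2. CI_RFP 11, with 48040 CPM of fibroblast and epicardial and 1886 CPM of cardiomyocyte markers, held the lowest RYR2 of CI_RFP, 7.12 CPM. Leaving out each library in turn, the log2 fold change of RYR2 for CI_RFP against CI_BFP ran from 9.59 to 13.46.

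Setting each member against a heart muscle transcript of the same tube relates it to the heart muscle RNA that the tube held. Per 1000 counts of MYL7, RYR2 had 2.53 to 59.9 counts in CI_RFP (median 12.5), against 0 to 0.0336 in CI_BFP. Per 1000 counts of TNNT2 (ENSDARG00000020610), cardiac troponin T, RYR2 had 10.2 to 113.7 counts in CI_RFP, against 0 to 1.595 in CI_BFP. The injured groups did not overlap on either denominator. However, CI_BFP 1 held 4 RYR2 counts and CI_BFP 2 and CI_BFP 3 held 0, so their ratios are 0 or near 0 with any denominator. The ratios of RYR2 are thus no check on heart muscle content. How many of all genes stand apart on such ratios was not counted. SLC8A1 (ENSDARG00000013422) was likewise apart after injury per MYL7, at 5.99 to 107.6 in CI_RFP against 0.0504 to 4.61 in CI_BFP, and overlapped slightly per TNNT2, at 24.2 to 241.2 against 2.39 to 25.9.

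CASQ2, atp2a2a and trdn ranges were farther apart on one denominator than on the other. CASQ2 had 12.1 to 64.7 counts per 1000 MYL7 counts in CI_RFP, against 1.48 to 8.41 in CI_BFP, but 27.0 to 160.9 per 1000 TNNT2 counts in CI_RFP, against 47.3 to 70.2 in CI_BFP. atp2a2a had 57.7 to 743.2 per 1000 MYL7 counts in CI_RFP, against 23.9 to 90.6 in CI_BFP, and 233.3 to 1666 per 1000 TNNT2 counts in CI_RFP, against 293.9 to 1348 in CI_BFP. trdn had 4.23 to 60.9 per 1000 MYL7 counts in CI_RFP (median 16.1), against 0.266 to 15.1 in CI_BFP (median 1.62), and 18.7 to 111.9 per 1000 TNNT2 counts in CI_RFP (median 50.0), against 3.97 to 84.7 in CI_BFP (median 77.0). The phospholamban genes kept the order of their medians. On these ratios pln1 was lower in the red gate, with a median of 30.0 per 1000 MYL7 counts in CI_RFP against 79.8 in CI_BFP. Per 1000 TNNT2 counts it had 7.19 to 502.0 in CI_RFP against 517.6 to 1292 in CI_BFP, with every red-gate library below every blue-gate one. All 3 CI_BFP libraries had more vmhc than myh6, at 161.2 to 296.1 CPM of vmhc. The 4 CI_RFP libraries with more vmhc held 26100 to 53520 CPM of it, so these sets are not matched in vmhc level. Those 4 had 35.3 to 87.3 pln1 counts per 1000 MYL7 counts, against 27.2 to 92.1 in CI_BFP, and these ranges overlapped. Per 1000 TNNT2 counts the same 4 had 212.1 to 502.0. pln2 had a median of 27.9 per 1000 MYL7 counts in CI_RFP against 1.87 in CI_BFP, and of 98.2 per 1000 TNNT2 counts in CI_RFP against 27.8 in CI_BFP, and its ranges overlapped on both. TNNT2 itself had a log2 fold change of 4.05 ± 1.14 between these groups (edgeR adjusted p = 0.212). In uninjured hearts the ranges of every tested member overlapped on both denominators. Medians per 1000 MYL7 counts were 7.19 in UN_RFP and 0.485 in UN_BFP for RYR2, and 25.3 and 17.6 for CASQ2. They were 73.3 and 59.5 for atp2a2a, and 5.23 and 50.2 for pln2. Per 1000 TNNT2 counts CASQ2 had medians of 90.7 in UN_RFP and 112.0 in UN_BFP. The ratios are a description and were not tested.

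**Figure D3:**
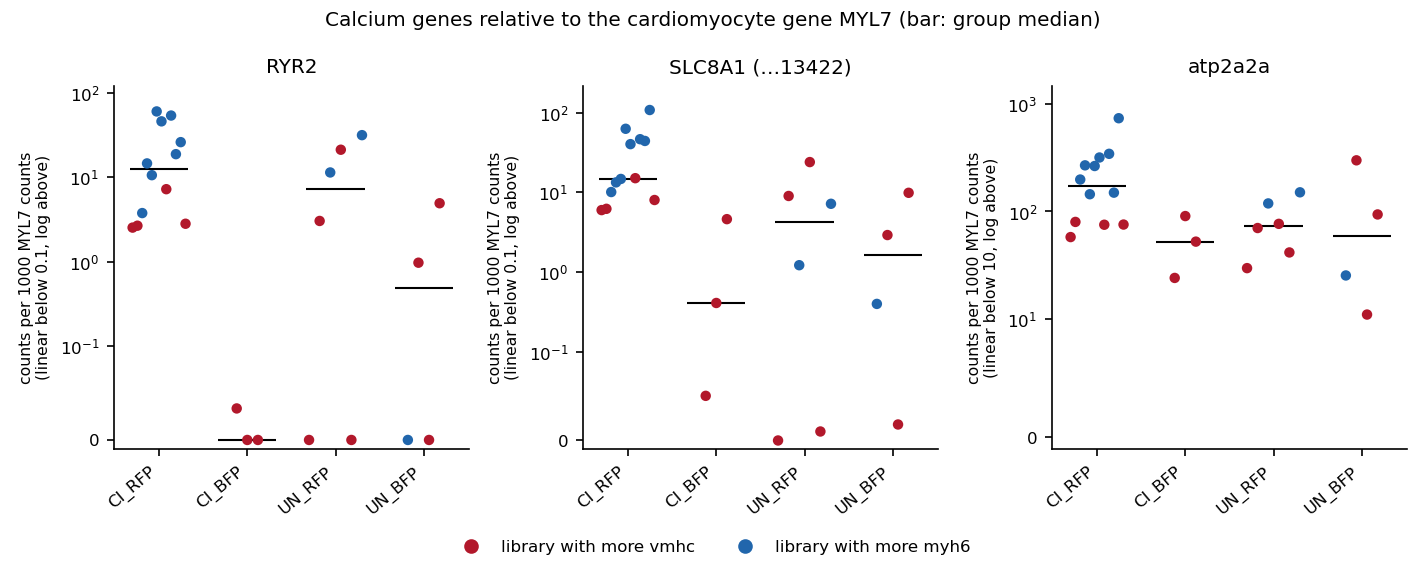
Counts of RYR2, SLC8A1 (ENSDARG00000013422) and atp2a2a per 1000 MYL7 counts of the same library, on a symmetric log axis, by group with the red gate left of the blue gate in each condition; points are libraries, coloured by which chamber myosin is higher, and bars are group medians. RYR2 in CI_RFP lies between 2.53 and 59.9, above the highest CI_BFP library at 0.0336, while the uninjured groups overlap.

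Within the red gate, several members differed with the chamber myosin of the tube. vmhc, the ventricular myosin heavy chain, which the name table lists as MYH7, exceeded the atrial myh6 in 4 of 12 CI_RFP libraries (1, 2, 8 and 12) and 4 of 6 UN_RFP libraries (1, 2, 4 and 5). In the blue gate it exceeded myh6 in 3 of 3 CI_BFP and 3 of 4 UN_BFP libraries, all but UN_BFP 1. No label gives the chamber, and libraries parted by a measured gene are compared here by their values with no test. The split went with other cell type markers too. Within CI_RFP, fibroblast and epicardial marker sums ran from 0 to 16.3 CPM in the 4 libraries with more vmhc and from 6.83 to 48040 CPM in the 8 with more myh6, where 7 of 8 held 4776 CPM or more. Cardiomyocyte marker sums, which include vmhc and myh6, ran from 111600 to 226900 CPM in the 4 and from 1886 to 92780 CPM in the 8. In UN_RFP the fibroblast and epicardial sums were 0 to 67.1 CPM in the 4 with more vmhc and 1679 and 2993 CPM in the 2 with more myh6. The part of these differences in the values below was not tested.

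The phospholamban pair was parted by this split in the red gate. Of all counts of the pair, pln1 held 89.4% to 100.0% in the 8 red-gate libraries with more vmhc and 8.5% to 49.8% in the 10 with more myh6, without overlap. In the blue gate it held 91.2% to 98.2% in the 3 CI_BFP libraries. The UN_BFP libraries with more vmhc had 55.5%, 96.4% and 91.3%, and UN_BFP 1, with more myh6, had 3.8%. In CPM, pln1 ran from 3196 to 3745 in the 4 CI_RFP libraries with more vmhc and from 18.3 to 323.0 in the 8 with more myh6. The high pln1 values of that group were thus those 4 libraries alone. pln2 ran from 26.4 to 380.5 CPM in the same 4 libraries and from 18.4 to 858.5 CPM in the 8, and these ranges overlapped. As shares of counts these values take no account of gene length. How many other paralog pairs part by this split was not counted.

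**Figure D4:**
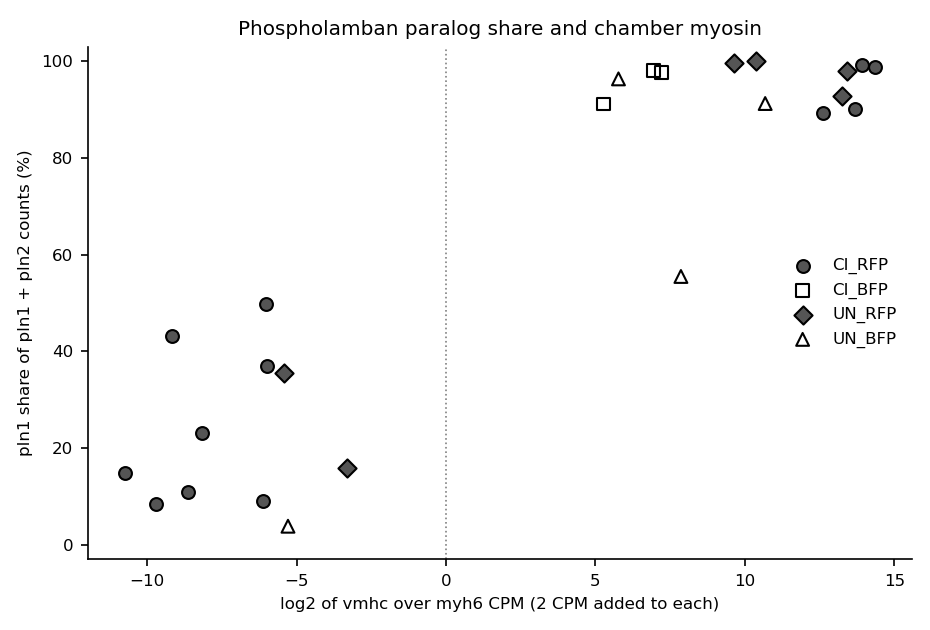
Share of phospholamban counts assigned to pln1, in percent, against the log2 ratio of vmhc to myh6 for each of the 25 libraries, with 2 CPM added to each gene; symbols mark the groups, filled for the red gate and open for the blue gate. Red-gate libraries with more vmhc lie between 89.4% and 100.0%, those with more myh6 between 8.5% and 49.8%.

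In CPM, trdn and hrc were also apart by chamber myosin within CI_RFP. The share of all genes apart by this split was not counted, so these members are not shown to be unusual among genes. trdn ran from 326.8 to 382.9 CPM in the 4 libraries with more vmhc and from 8.64 to 232.0 CPM in the 8 with more myh6, while hrc ran from 31.8 to 184.4 CPM in those with more vmhc and from 0 to 19.0 CPM in those with more myh6. CASQ2 ran from 564.4 to 1912 CPM with more vmhc and from 3.30 to 891.3 CPM with more myh6, and SLC8A1 (ENSDARG00000013422) from 394.1 to 725.8 CPM with more vmhc and from 29.5 to 407.2 CPM with more myh6. Both overlapped at 1 library, CI_RFP 3, the highest of those with more myh6. RYR2 ran from 166.4 to 286.7 CPM with more vmhc and from 7.12 to 228.2 CPM with more myh6, and atp2a2a from 2993 to 6840 CPM with more vmhc and from 203.7 to 8033 CPM with more myh6. In UN_RFP the libraries with more vmhc included UN_RFP 1 and UN_RFP 5, which held 0 to 4.62 CPM of RYR2, trdn and SLC8A1 (ENSDARG00000013422), so the same order was not present there.

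MYL7 was itself higher in the red-gate libraries with more vmhc, at 15520 to 90630 CPM against 274.1 to 40410 CPM in those with more myh6. Per 1000 MYL7 counts, atp2a2a then stood lower in the 8 libraries with more vmhc, at 29.6 to 79.9 counts, than in the 10 with more myh6, at 118.9 to 743.2 counts, without overlap. pln2 parted the same way, at 0 to 9.45 counts with more vmhc and 21.2 to 385.8 counts with more myh6. How many of all genes part on this ratio was not counted. Per 1000 TNNT2 counts the atp2a2a ranges overlapped, at 152.2 to 549.8 counts with more vmhc and 395.3 to 1666 counts with more myh6. Within CI_RFP, trdn and hrc did not stay apart on these ratios. Per 1000 MYL7 counts, trdn had a median of 4.80 with more vmhc and 26.2 with more myh6, and its ranges overlapped. Per 1000 TNNT2 counts its medians were 26.5 and 75.75. hrc ran from 0.417 to 4.63 per 1000 MYL7 counts with more vmhc and from 0 to 4.79 with more myh6.

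Cryoinjury itself moved no member past the threshold in either gate. For CI_RFP against UN_RFP edgeR called 0 of 9 members, against 0.00673% of all genes higher and 0.0202% lower, and 1 member, atp2a2a, had an unadjusted p under 0.05, against 15.8% of genes higher at that level. Its group values, 203.7 to 8033 CPM in CI_RFP and 442.9 to 2995 CPM in UN_RFP, overlapped, with a log2 fold change of 1.48 ± 0.74 (edgeR adjusted p = 0.287). Next came pln2 at 1.40 ± 0.94 and SLC8A1 (ENSDARG00000013422) at 1.10 ± 1.14 (edgeR adjusted p = 0.57 and 0.834). RYR2 had 0.58, CASQ2 0.74, ATP2A2 0.86, trdn 0.23, pln1 0.12 and hrc -0.13. The median of the 9 was 0.74 against 0.75 for all tested genes, and 8 of 9 were positive against 69.4% of all genes. The share of libraries with more vmhc differed between these groups, 4 of 12 in CI_RFP and 4 of 6 in UN_RFP.

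For CI_BFP against UN_BFP, with 3 and 4 libraries, edgeR again called 0 of 9 members, against 0.0% of all genes higher and 0.0% lower. RYR2 had a log2 fold change of -5.51 ± 2.21 (edgeR adjusted p = 0.51) and an unadjusted p under 0.05, as did 3.57% of genes in that direction. That value rests on UN_BFP 4: without this library it was 0.96 (edgeR adjusted p = 1). CASQ2 was 1 member whose groups did not overlap, at 16.7 to 26.8 CPM in CI_BFP against 34.0 to 116.9 CPM in UN_BFP, which 1.88% of tested genes also showed in this direction. Its log2 fold change was -1.63 and did not pass. pln2 had -2.54 ± 1.48 (edgeR adjusted p = 0.713), with 5.71 to 28.3 CPM in CI_BFP against 21.4 to 244.6 CPM in UN_BFP. The remaining fold changes were -1.23 for SLC8A1 (ENSDARG00000013422), -0.70 for trdn, 0.75 for atp2a2a, 1.23 for hrc, 0.15 for pln1 and -0.07 for ATP2A2.

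Whether the gate difference itself differed with injury was tested as an interaction. It called 0 of 9 members, against 0.0% of all genes higher and 0.0% lower. RYR2 had an interaction of 6.09 on the log2 scale (edgeR adjusted p = 0.326) and pln2 of 3.94 (edgeR adjusted p = 0.367). The RYR2 value again rests on UN_BFP 4, and was -0.38 without it. The gate difference is therefore not shown to differ between injured and uninjured hearts for any of the 9 genes.

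Around the 10 genes, 9 further lists of calcium genes were read from the same fit, and none of their members passed the threshold in any of the 5 comparisons. Of all tested genes, 55.3% were positive for CI_RFP against CI_BFP (median 0.22) and 38.8% for UN_RFP against UN_BFP (median -0.43). At an unadjusted p under 0.05, 7.65% of all genes were higher in CI_RFP than in CI_BFP. The myofilament calcium switch, troponins and their partners on the thin and thick filament, had 11 of 11 tested IDs positive for CI_RFP against CI_BFP, with a median of 4.04 and 6 at an unadjusted p under 0.05. TNNT2 (ENSDARG00000020610) averaged 6343 ± 5996 CPM in CI_RFP and 383.9 ± 167.1 CPM in CI_BFP, and MYBPC3, myosin binding protein C, 1296 ± 1438 CPM in CI_RFP and 51.5 ± 18.6 CPM in CI_BFP (SD, n = 12 and 3). In uninjured hearts 10 of 11 were positive, with a median of 2.02.

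Of 26 IDs for channels of the surface membrane, 9 passed the filter on low counts. Of these 9, 8 were positive after injury (median 4.45) and 7 without (median 2.09). A gene of low counts can pass the filter through red-gate libraries alone. The signs of such genes are then in part set by the filter, here and in the other lists. CACNA1G, a T-type calcium channel, averaged 22.5 ± 18.4 CPM in CI_RFP and 1.01 ± 0.77 CPM in CI_BFP, with a log2 fold change of 4.45 ± 2.50 (edgeR adjusted p = 0.571). CACNA1C, the pore of the L-type channel that triggers release in mammalian heart, averaged 5.97 ± 4.37 CPM in CI_RFP and 0.254 ± 0.439 CPM in CI_BFP. CACNB4, a channel beta subunit, had 397 counts over 7 of 12 CI_RFP libraries and 0 in CI_BFP.

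The partners of the release unit had 12 of 18 tested IDs positive after injury (median 1.27) and 9 of 18 without (median 0.16). The shares of all tested genes were 55.3% and 38.8%. JPH2, junctophilin, which holds the store against the surface membrane, averaged 43.8 ± 28.5 CPM in CI_RFP and 4.99 ± 8.12 CPM in CI_BFP (log2 fold change 3.13 ± 2.17, edgeR adjusted p = 0.82). Kinases and phosphatases that act on these proteins had 21 of 30 positive (median 0.89) and 14 of 30 (median 0). camk2d2, a calcium and calmodulin dependent kinase of the delta type, averaged 108.9 ± 88.5 CPM in CI_RFP, where 12 of 12 libraries held it, and 3.30 ± 5.71 CPM in CI_BFP, where 1 of 3 did (edgeR adjusted p = 0.524).

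Other pumps and exchangers had 8 of 17 tested IDs positive after injury and 7 of 17 without, with medians of -0.07 and 0. Luminal buffers and chaperones common to most cells had 7 of 16 and 4 of 16, with medians of -0.23 and -0.75. Store-operated and inositol trisphosphate release had 5 of 12 and 3 of 12, with medians of -0.12 and -1.76. Mitochondrial calcium genes had 6 of 11 and 4 of 11, with medians of 0.16 and -0.55. For all tested genes the shares positive were 55.3% and 38.8%, with medians of 0.22 and -0.43. Of the skeletal muscle forms of the release and uptake genes, 3 of 11 IDs passed the filter, with medians of 4.47 and 0.24.

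For CI_RFP against UN_RFP the medians of the 9 lists lay between 0.18 and 1.76, and for CI_BFP against UN_BFP between -1.56 and 0.46. Other pumps and exchangers had 16 of 17 IDs positive in CI_RFP against UN_RFP, and mitochondrial calcium genes 11 of 11, against 69.4% of all genes. MCU, the pore of the mitochondrial uniporter, averaged 16.6 ± 13.0 CPM in CI_RFP and 1.13 ± 2.77 CPM in UN_RFP, with a log2 fold change of 3.85 ± 1.80 (edgeR adjusted p = 0.224). It was read in 10 of 12 CI_RFP and 1 of 6 UN_RFP libraries. UN_RFP 5, with 1226 genes detected, and UN_RFP 1, with 5008, are among the 3 libraries with the fewest genes. With genes detected as a covariate, the median of all tested genes for CI_RFP against UN_RFP was -0.32, against 0.75 in the main fit. The lists were not read from that fit, so the part of genes detected in these counts was not tested.

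The genes whose levels most resembled each member over the 25 libraries were named by Spearman correlation of log2 CPM, as a description with no test. They were read in the same tubes as the member, whose heart muscle content differs. atp2a2a went with ATP1B1 (ENSDARG00000013144) at 0.933, ckma at 0.919 and TNNT2 (ENSDARG00000020610) at 0.918. CASQ2 went with the same ATP1B1 ID at 0.927 and with MYL9 (ENSDARG00000038123) at 0.92. SLC8A1 (ENSDARG00000013422) went with TXLNB at 0.951 and myh14 at 0.935, and trdn with NDUFA9 at 0.923 and SPTB at 0.919. pln1 went with ENO3 at 0.882 and ALDOA (ENSDARG00000011665) at 0.845. The nearest genes were less close for pln2, CPA1 (ENSDARG00000021339) at 0.772 and CHRM2 (ENSDARG00000098612) at 0.768, and for ATP2A2, ATAD1 at 0.796. Among the members, RYR2 went with SLC8A1 (ENSDARG00000013422) and with trdn at 0.92 each, and pln1 with pln2 at -0.19.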

How the data were processed

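Per the labels' protocols, RNA of 20 sorted cells a tube was amplified with Smart-seq2. Per the submitters' processing notes, FastQC 0.11.5, HISAT2 2.1.0, featureCounts 1.6.0 and the GRCz11 build were used; the naming of the count tables follows another aligner, so which tool made them is not settled. Strand setting and treatment of reads matching several genes are not given here. The deposited files hold raw read counts per gene, not normalized, for 25 libraries. Names were found for 29178 of 31901 IDs (91.5%), and coordinates and sequences were not used here.

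Libraries were grouped by condition and gate, and numbered within groups in order of deposition. Genes were kept by filterByExpr (14853, among them 9 of the 10 members), scaled by TMM and tested with edgeR 4.0.16 in R 4.3.3, robust quasi-likelihood, two-sided, in 1 fit of 4 group means, with Benjamini-Hochberg adjustment and a threshold of 0.05. The SE is the log2 fold change over the square root of F and restates the p-value. voom (limma 3.58.1), DESeq2 1.42.0 and the other alternatives are in the closing section, and leaving out the 3 libraries of fewest genes was added after seeing the data. The fits were run on simulated counts with known changes. A set recovery was required only of edgeR at a spread below that of these libraries, so this is no check of the methods at the spread found here.

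Every member is named. From the supporting lists, genes with the smallest p were named, except that CACNA1C was added after its values were seen. The 3 genes most alike were ranked for members with a count in at least 20 libraries. Members, gene lists and marker lists were chosen with earlier results of these data known. Of the other marker lists, smooth muscle IDs summed to a median of 334.0 CPM in CI_RFP against 305.6 CPM in CI_BFP, and 699.9 CPM in UN_RFP against 712.5 CPM in UN_BFP. Skeletal muscle IDs summed to 11650 CPM in CI_RFP against 1339 CPM in CI_BFP, and 4668 CPM in UN_RFP against 780.1 CPM in UN_BFP. Erythrocyte IDs summed to 0.191 CPM in CI_RFP against 0.190 CPM in CI_BFP, and 0.207 CPM in UN_RFP against 2.75 CPM in UN_BFP. Thrombocyte IDs summed to 110.4 CPM in CI_RFP against 170.3 CPM in CI_BFP, and 2.58 CPM in UN_RFP against 175.1 CPM in UN_BFP.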

Additional observations from a re-analysis of the deposited data

Results flagged for a closer look

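In groups of 4 or 6 libraries, the CPM of each member and the pln1 and atp2a2a shares of their pairs were examined. A group was picked out where its highest or lowest library stood apart from the nearest other by more than Dixon's 95% critical value. Of 23 groups tested, 9 were picked out, where chance picks about 1 in 20 groups if values are normally distributed. CPM of these genes are skewed and hold many zeros, so that rate is not a measure of how unusual 9 is. UN_BFP 4 accounts for 3 of them: RYR2 at 26.2 CPM with the next library at 0.194, SLC8A1 (ENSDARG00000013422) at 52.7 CPM with the next at 1.01, and atp2a2a at 501.3 CPM with the next at 91.6. UN_RFP 4 accounts for a further 2, RYR2 at 379.9 CPM with the next at 129.5 and hrc at 163.1 CPM with the next at 52.3. UN_RFP 2 held 2995 CPM of atp2a2a with the next library at 1379. pln2 stood apart in UN_RFP 6, at 496.9 CPM with the next at 163.5, and in UN_BFP 1, at 244.6 CPM with the next at 36.4, and both are libraries with more myh6 than vmhc. SLC8A1 (ENSDARG00000043406) had 234.1 CPM in UN_RFP 5 and 0 in the other 5 UN_RFP libraries.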

How the results depend on the processing

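No paired analysis was possible because the labels give no replicate number, animal, sort or day that the groups share. Over 36 member fold changes and 1187 values under alternatives, 1136 kept their direction, 51 reversed (29 by leaving out 1 library) and 10 passed the threshold. Of the 36, 22 had no reversal, among them the gate difference after injury of RYR2, CASQ2, SLC8A1 (ENSDARG00000013422), pln2, atp2a2a, trdn and ATP2A2. The count of members called was 0 in every comparison of the main fit. For CI_RFP against CI_BFP it became 1 with no low count filter, voom, the groups compared alone or the vmhc to myh6 ratio. DESeq2 gave 4 there, and the shares of all genes called are given above with RYR2. For CI_RFP against UN_RFP it became 1 with no low count filter. That was the second SLC8A1 ID, lower in CI_RFP and with counts in 1 library. In this comparison the setting called 182 of 22759 genes higher and 331 lower. Leaving out each library in turn gave 0 to 1 for CI_RFP against CI_BFP and for UN_RFP against UN_BFP. With DESeq2's size factors the median of all genes moved by -0.61 (CI_RFP against CI_BFP), -0.19 (UN_RFP against UN_BFP), 0.46 (CI_BFP against UN_BFP) and -0.38 (interaction). Reversed log2 fold changes were as follows, and the cause was not tested. For CI_RFP against CI_BFP, hrc was -0.40 with size factors and -0.40 with DESeq2, and pln1 -0.42 (voom). For UN_RFP against UN_BFP, voom gave hrc -0.27 and pln2 -0.91, and ATP2A2 was 0.41 without the 3 libraries of fewest genes. For CI_RFP against UN_RFP, hrc was 0.065 with size factors, 0.066 with DESeq2, 2.49 with voom, 2.46 with the ratio and 0.71 with genes detected as covariates, pln1 was -0.31 with size factors, -0.31 with DESeq2, -0.79 with voom, -0.016 in the groups alone and -0.012 without the 3 libraries, and trdn -0.33 without them. For CI_BFP against UN_BFP, ATP2A2 was 0.46 with size factors, 0.46 with DESeq2 and 1.96 with voom, which also gave SLC8A1 0.75 and trdn 1.44. Leaving out 1 library, CI_BFP against UN_BFP ran from -0.94 to 0.65 for ATP2A2, -8.83 to 0.96 for RYR2, -3.28 to 3.28 for SLC8A1, -3.08 to 1.92 for hrc, -0.25 to 1.86 for pln1 and -1.87 to 0.49 for trdn. UN_RFP against UN_BFP ran from -0.76 to 0.55 for ATP2A2 and -0.16 to 2.23 for pln2, CI_RFP against CI_BFP from -0.11 to 5.03 for hrc, and CI_RFP against UN_RFP from -0.92 to 1.64 for hrc, -0.17 to 0.71 for pln1 and -0.032 to 0.94 for trdn. Groups of 3 and 4 tubes and the spread between tubes limit every comparison, and since reads carried no molecular identifiers, counting error is not the whole error of a count.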
